A study of Homo sapiens with 14 samples.

Results

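The genes described here are those of MHC class II antigen presentation in MOLM14 cells, an established human acute myeloid leukaemia line with a FLT3 internal tandem duplication. The 10 members were taken by name: the chain genes HLA-DRA, HLA-DRB1, HLA-DPA1, HLA-DPB1, HLA-DQA1 and HLA-DQB1, the peptide-exchange genes HLA-DMA and HLA-DMB, the invariant chain gene CD74, and CIITA, the class II transactivator. Each matched 1 primary-assembly Ensembl identifier among the 39293 gene identifiers of the table. Poly(A) RNA-seq had been done on 14 libraries. The FGF2 early arm was 4 flasks of early gilteritinib-resistant MOLM14 cells kept with FGF2 (fibroblast growth factor 2), and the FL early arm was 4 such flasks kept with FL, the FLT3 ligand, each ligand at 10 ng/mL. Both early arms had received gilteritinib, a drug that blocks the kinase FLT3, at 100 nM for 48 hours. The acute arm was parental MOLM14 cells given 100 nM gilteritinib for 48 hours, with 1 library each of drug alone, drug with 10 ng/mL FGF2 and drug with 10 ng/mL FL. The parental arm was 3 libraries of untreated MOLM14 cells. Replicates 1 to 4 are flasks 5, 6, 7 and 8 in FGF2 early and flasks 10, 11, 12 and 9 in FL early. All 14 libraries come from 1 cell line in culture, and nothing in the labels says that flasks or libraries were derived independently, so p-values measure the spread between these samples, which may be technical.

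MHC class II molecules are pairs of an alpha and a beta chain that show peptides from the endosome to CD4+ T helper cells. In the cell the new pairs are held by the invariant chain, CD74, which proteases of the endosome then cut down, and HLA-DM exchanges the remaining fragment for a peptide. Transcription depends on CIITA, which does not bind DNA itself but is recruited by the RFX complex, NF-Y and CREB to paired sequences, the X and Y boxes, upstream of these genes. Normal monocytes, dendritic cells and B cells carry class II, and in acute myeloid leukaemia its loss has been described as a route of escape from T cells.

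Total estimated counts ran from 25723575 to 33075041 per library. The first principal component of log2 expression held 47.3% of the variance and set the acute libraries (104.6 to 122.6) apart from the others (-48.6 to -5.66). On the second (19.2%), FL early replicates 1 and 4 lay at -9.02 and 16.9, away from FL early replicates 2 and 3 at -34.8 and -33.7, and the members' results that rest on FL early, with the calls of companion genes that change, are also given without replicates 1 and 4. All 7 markers listed for the leukaemia line, among them CD33, FLT3, HOXA9 and SPI1, were present. Of 7 monocyte and macrophage markers only CSF1R and VCAN reached 1 CPM (counts scaled to a common depth) in any library. CD14, FCGR3A, C1QA and C1QB stayed under 1 CPM. The summed level of this list was 7.19 to 10.8 CPM in FGF2 early, 8.31 to 27.2 in FL early, 122.8 to 184.8 in acute and 19.4 to 23.3 in parental libraries. In acute libraries nearly all of that sum was CSF1R, at 121.1 to 183.4 CPM. VCAN went the other way, at a mean of 0.774 CPM in acute and 7.38 CPM in parental libraries. The part of this list in the results below was not tested. Of 7 dendritic cell markers only CLEC10A reached 1 CPM, with a summed level of the list of 0.517 to 1.28 CPM in FGF2 early, 0.513 to 1.0 in FL early, 3.26 to 4.58 in acute and 2.44 to 3.03 in parental libraries. CLEC10A was lower in early flasks, at means of 0.379 CPM in FGF2 early and 0.297 in FL early against 1.99 in parental libraries. Both passed by edgeR's quasi-likelihood test (adjusted p = 0.00484 and 0.00427). CLEC10A averaged 3.39 CPM in acute libraries. It passed the filter on low counts through the acute and parental libraries, so its calls as lower were built into its being tested. Its part in the results was not tested. Of 6 B cell markers only PAX5 reached 1 CPM, at 70.3 to 82.6 CPM in FGF2 early, 54.6 to 75.1 in FL early, 39.3 to 43.5 in acute and 68.0 to 74.4 in parental libraries. Of 5 T and NK cell markers in the table, CD3D, NKG7 and GNLY reached 1 CPM and CD3E and CD8A did not. In bulk RNA, fewer cells with a transcript and less transcript per cell cannot be told apart.

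RefSeq promoters of 300 bases (250 before to 50 after a gene start, GRCh38.p14) were at hand for 8 of the 10 members, with 2 entries for HLA-DPA1. The Y box core ATTGG, searched on both strands, was found in 7 members (HLA-DRB1, HLA-DPB1, HLA-DQA1, HLA-DQB1, HLA-DMA, HLA-DMB and CD74) and in 34.6% of 35116 promoters. The X box core CCTAGNNAC was found in HLA-DMB and in 3.08% of promoters, and no member held it 25 to 50 bases before ATTGG on one strand, an arrangement that 0.114% of promoters had. A shorter X core, AGNNAC, was chosen after the promoters were seen. Followed by ATTGG with starts 25 to 50 bases apart on one strand, it was found in 5 members and in 3.97% of promoters. These matches are descriptions of letters, and AGNNAC alone was in 86.5% of promoters. The stretches below hold the X core (first capitals) and the Y core ATTGG or its reverse complement CCAAT (second capitals). They let chain genes, the HLA-DM genes and the invariant chain gene be compared. HLA-DMB and CD74 did not hold the pair as defined above and are shown with CCAAT, searched over a wider distance. No share of promoters was counted for that arrangement. HLA-DPB1 held the pair and is not printed, and HLA-DOA and HLA-DRB5, which are no members, held it too.
HLA-DRB1 (chr6:32589884-32589933, minus strand): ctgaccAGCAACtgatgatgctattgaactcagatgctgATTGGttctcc
HLA-DQA1 (chr6:32637298-32637348, plus strand): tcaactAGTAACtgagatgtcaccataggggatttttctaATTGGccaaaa
HLA-DQB1 (chr6:32666735-32666784, minus strand): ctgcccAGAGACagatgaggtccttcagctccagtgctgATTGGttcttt
HLA-DMA (chr6:32953166-32953216, minus strand): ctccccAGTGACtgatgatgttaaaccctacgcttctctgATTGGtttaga
HLA-DMB (chr6:32941040-32941125, minus strand): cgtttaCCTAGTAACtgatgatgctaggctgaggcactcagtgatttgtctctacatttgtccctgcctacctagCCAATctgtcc
CD74 (chr5:150412953-150412997, minus strand): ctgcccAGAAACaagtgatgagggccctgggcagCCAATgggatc
The starts of the marked cores lay 33 bases apart in HLA-DRB1 and HLA-DQB1, and 34 in HLA-DQA1 and HLA-DMA. In HLA-DMB, whose X core is the 9-letter one, the CCAAT began 69 bases after it, and in CD74 28 bases after it. HLA-DOB, the beta chain of the HLA-DM inhibitor HLA-DO and no member, held ATTGG without AGNNAC ahead of it at that distance (chr6:32817090-32817140, minus strand), and its level is given further on.
HLA-DOB: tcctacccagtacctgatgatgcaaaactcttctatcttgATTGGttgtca

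CIITA, the transactivator, was lowest in FL early flasks, next in FGF2 early flasks, next in parental cells and highest in acute gilteritinib, and each of these 4 neighbours in the order was separated from the next. CIITA (ENSG00000179583) was at 17.3, 12.8, 13.1 and 12.5 CPM in FGF2 early replicates 1 to 4, at 8.07, 9.58, 7.78 and 7.15 CPM in FL early replicates 1 to 4, at 51.6, 46.6 and 48.4 CPM in acute libraries with no ligand, FGF2 and FL, and at 20.8, 26.2 and 20.7 CPM in parental libraries. No library of one arm lay within the range of another. The log2 fold change was -0.69 ± 0.13 (SE, adjusted p = 0.00167) for FGF2 early against parental and -1.47 ± 0.14 (adjusted p = 1.44e-05) for FL early against parental, by edgeR's quasi-likelihood test with Benjamini-Hochberg adjustment over 15756 genes, as for every adjusted p below. In acute cells CIITA rose by a log2 fold change of 1.12 ± 0.14 over parental (adjusted p = 9.94e-06), which is 2.17-fold. Early flasks were below acute libraries by -1.81 ± 0.13 (FGF2, adjusted p = 4.35e-08) and -2.58 ± 0.14 (FL, adjusted p = 1.69e-09). FGF2 early was above FL early by 0.77 ± 0.13 (adjusted p = 0.00154), with 4 of 4 FGF2 early flasks above 4 of 4 FL early flasks.

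CD74, the invariant chain, was lower than parental in both early arms and higher in acute cells, as CIITA was. CD74 (ENSG00000019582) was at 168.2, 140.8, 132.5 and 131.2 CPM in FGF2 early flasks, 125.4, 109.7, 125.9 and 125.4 CPM in FL early flasks, 416.8, 442.9 and 426.2 CPM in acute libraries and 247.1, 233.1 and 265.1 CPM in parental libraries. The early arms did not overlap the parental or the acute arm, and the lowest acute library was above the highest parental one. Log2 fold changes were -0.80 ± 0.09 for FGF2 early against parental (adjusted p = 3.29e-05), -1.03 ± 0.09 for FL early against parental (adjusted p = 8.11e-06) and 0.79 ± 0.09 for acute against parental (adjusted p = 4.67e-06). Between FGF2 early and FL early the difference in CD74 was 0.24 ± 0.08 and did not pass (adjusted p = 0.0698). Whether CIITA and CD74 differed in the size of their change was not tested.

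**Figure D1:**
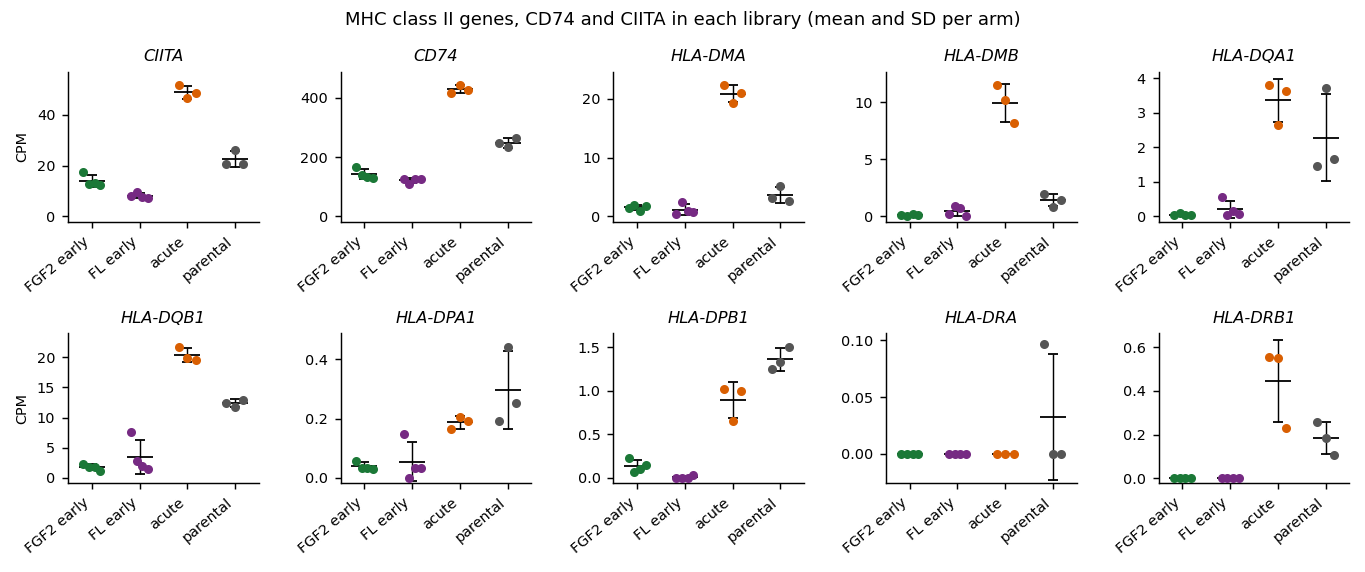
Expression of the 10 members in scaled counts (CPM, linear axis with its own range in each panel), 1 point per library, for the FGF2 early (n = 4), FL early (n = 4), acute (n = 3) and parental (n = 3) arms, with the mean and SD of each arm as black bars. CIITA and CD74 are separated between acute, parental and early arms, the 2 HLA-DM genes stand highest in acute libraries, and the HLA-DPB1, HLA-DQ and HLA-DRB1 points of early flasks lie below those of acute and parental libraries.

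HLA-DMA and HLA-DMB encode the 2 chains of HLA-DM, which loads peptides onto class II. They showed the largest rise of the tested members in acute gilteritinib. HLA-DMA (ENSG00000204257) was at 1.51, 1.92, 0.896 and 1.74 CPM in FGF2 early flasks, 0.372, 2.52, 0.964 and 0.718 CPM in FL early flasks, 22.3, 19.3 and 21.0 CPM in acute libraries and 3.18, 5.13 and 2.59 CPM in parental libraries. Every acute library was above every parental one, and the highest early value, in FL early replicate 2, came close to the lowest parental one. HLA-DMA rose in acute against parental by a log2 fold change of 2.52 ± 0.47 (5.74-fold, adjusted p = 0.000297). It was lower in FGF2 early with a log2 change of -1.25 ± 0.44 (adjusted p = 0.0446) and in FL early by -1.65 ± 0.45 (adjusted p = 0.0201) than in parental. Neither early call is firm. Leaving out parental replicate 2 gave adjusted p = 0.201 for FGF2 early and 0.109 for FL early, and the FGF2 early call also ended without FGF2 early replicate 1, 2, 3 or 4 (0.088, 0.0571, 0.107 and 0.0676) or parental replicate 1 (0.0764).

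HLA-DMB (ENSG00000242574) was at 0.0872, 0.0338, 0.172 and 0.12 CPM in FGF2 early flasks, 0.223, 0.883, 0.698 and 0 CPM in FL early flasks, 11.5, 10.2 and 8.2 CPM in acute libraries and 1.93, 0.849 and 1.48 CPM in parental libraries. FGF2 early flasks held 1 to 5 counts each and lay below all parental libraries, while FL early replicate 2 lay within the parental range. In acute cells HLA-DMB rose by 2.80 ± 0.63 over parental (log2, adjusted p = 0.00142). It fell in FGF2 early with a log2 change of -3.73 ± 0.74 (adjusted p = 0.00213). HLA-DMB passed the filter on low counts through the acute and parental libraries, so a fall in early flasks was built into its being tested. Counted over the arms, the parental level was 14 times that of FGF2 early (13 counts in FGF2 early against 124 in parental, 95% interval 7.91 to 27.1 for counting error alone). FL early differed from parental by -1.63 ± 0.62, which did not pass (adjusted p = 0.0802). Without FL early replicate 2 it passed (-2.18, adjusted p = 0.0362), so 1 flask decides that call.

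Both chain genes of HLA-DQ, one of the molecules that display peptide, fell in both early arms. HLA-DQB1 (ENSG00000179344), the beta chain, was at 2.33, 1.82, 1.83 and 1.20 CPM in FGF2 early flasks, 7.55, 2.74, 1.93 and 1.54 CPM in FL early flasks, 21.8, 19.9 and 19.6 CPM in acute libraries and 12.4, 11.7 and 13.0 CPM in parental libraries. FL early replicate 1 was the highest early flask, yet no early flask reached a parental library. HLA-DQB1 changed by -2.78 ± 0.41 in FGF2 early (adjusted p = 0.000322) and by -1.85 ± 0.40 in FL early (adjusted p = 0.00607) against parental. Acute against parental gave 0.72 ± 0.41 (adjusted p = 0.144). There the 3 acute libraries were all above the 3 parental ones, and a fit of those 6 libraries alone put the difference past the threshold (0.69, adjusted p = 0.00059), as limma-voom did (0.72, adjusted p = 0.014).

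HLA-DQA1 (ENSG00000196735), the alpha chain, was at 0.0291, 0.101, 0.0345 and 0.03 CPM in FGF2 early flasks, 0.558, 0.0315, 0.166 and 0.0684 CPM in FL early flasks, 3.80, 2.65 and 3.62 CPM in acute libraries and 1.45, 3.73 and 1.66 CPM in parental libraries. FGF2 early flasks held 1 to 3 counts each, and FL early replicate 1 held 15, against 45 to 101 in parental libraries. HLA-DQA1 passed the filter on low counts through the acute and parental libraries, so its calls as lower were built into its being tested. It fell with a log2 change of -5.45 ± 0.73 in FGF2 early (adjusted p = 0.000143) and by -3.48 ± 0.61 in FL early (adjusted p = 0.00187). The parental level was 47.0 times that of FGF2 early (95% counting interval 21.2 to 129.8) and 11.5 times that of FL early (7.41 to 18.5). Acute and parental libraries overlapped, with a difference of 0.56 ± 0.56 (adjusted p = 0.401).

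HLA-DPB1 (ENSG00000223865), the HLA-DP beta chain, was nearly without reads in FL early. It had 8, 2, 3 and 5 counts in FGF2 early flasks, 0, 0, 0 and 1 in FL early flasks, 31, 19 and 26 in acute libraries and 39, 36 and 42 in parental libraries. Each early flask lay below each acute and parental library, and each FL early flask lay below each FGF2 early flask. HLA-DPB1 passed the filter on low counts through the acute and parental libraries, so its calls as lower were built into its being tested. It fell in FGF2 early with a log2 change of -3.24 ± 0.44 (adjusted p = 0.000169) and passed in FL early at adjusted p = 1.45e-05. The parental level was 9.56 times that of FGF2 early (5.79 to 16.7) and, from 1 count in FL early, 160.5 times that of FL early (28.2 to 6392.8, 95% counting intervals). Unlike the HLA-DM genes, HLA-DPB1 was not higher in acute than in parental cells, with a difference of -0.61 ± 0.42 (adjusted p = 0.216). FGF2 early was above FL early (adjusted p = 0.0071). That contrast rests on 18 counts in FGF2 early and 1 in FL early, with the FL early level 0.0595 times that of FGF2 early (0.00143 to 0.377).

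HLA-DPA1, HLA-DRA and HLA-DRB1 did not pass the filter on low counts and were not tested in the same way. HLA-DRB1 (ENSG00000196126), the HLA-DR beta chain, had 0 counts in all 4 FGF2 early and all 4 FL early flasks, 17, 16 and 6 in acute libraries and 8, 5 and 3 in parental libraries. Taking a floor of 3 counts over each early arm (0.0237 CPM in FGF2 early and 0.0254 in FL early), the parental level was at least 7.84-fold higher than FGF2 early and at least 7.32-fold higher than FL early. The acute level was at least 19.2-fold and 17.9-fold higher than these arms. HLA-DPA1 (ENSG00000231389), the HLA-DP alpha chain, had 1 to 2 counts per FGF2 early flask, 0 to 4 per FL early flask, 5 to 6 per acute library and 6 to 12 per parental library. HLA-DRA (ENSG00000204287), the HLA-DR alpha chain, had 3 counts in parental replicate 1 and 0 in every other library, too few for any comparison. Fitted without the filter, HLA-DRB1 passed against parental in FGF2 early (adjusted p = 0.00479) and FL early (adjusted p = 0.00937), and so did HLA-DPA1 (0.0145 and 0.0414), while HLA-DRA did not (0.285 and 0.346).

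HLA reads can be assigned to identifiers of alternative sequences, which carried no gene name in the tables used here, so a member's level on its primary identifier may be a part of its total. No member shared all its values with another identifier. Among the tested companion genes PSMB8, HLA-E, PSMB9 and AP2B1 did, with 4, 2, 1 and 1 others. The alleles of MOLM14 cells were not read here, and levels are compared between arms for 1 gene and not between genes.

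In all, 7 of 10 members were tested. Against parental cells, 7 were lower and 0 higher in FGF2 early, where 17.1% of all tested genes were lower and 13.3% higher. In FL early 6 were lower and 0 higher, where 9.76% of genes were lower and 10.9% higher. In acute cells 4 were higher (CIITA, CD74, HLA-DMA and HLA-DMB) and 0 lower, where 32.3% of genes were higher and 30.3% lower. Against acute cells, 7 were lower and 0 higher in each early arm, beside 32.4% lower and 31.1% higher for FGF2 early and 29.7% lower and 30.5% higher for FL early. In FGF2 early against FL early 2 were higher, CIITA and HLA-DPB1, and 0 lower, where 4% of genes passed as higher and 9.56% as lower. HLA-DPB1, HLA-DQA1 and HLA-DMB passed the filter through the acute and parental libraries, with 0 to 28 counts in any early flask, so a difference was built into their being tested, and these counts describe the members and support nothing further. The early arms share their parental and acute libraries, so their comparisons are not independent.

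**Figure D2:**
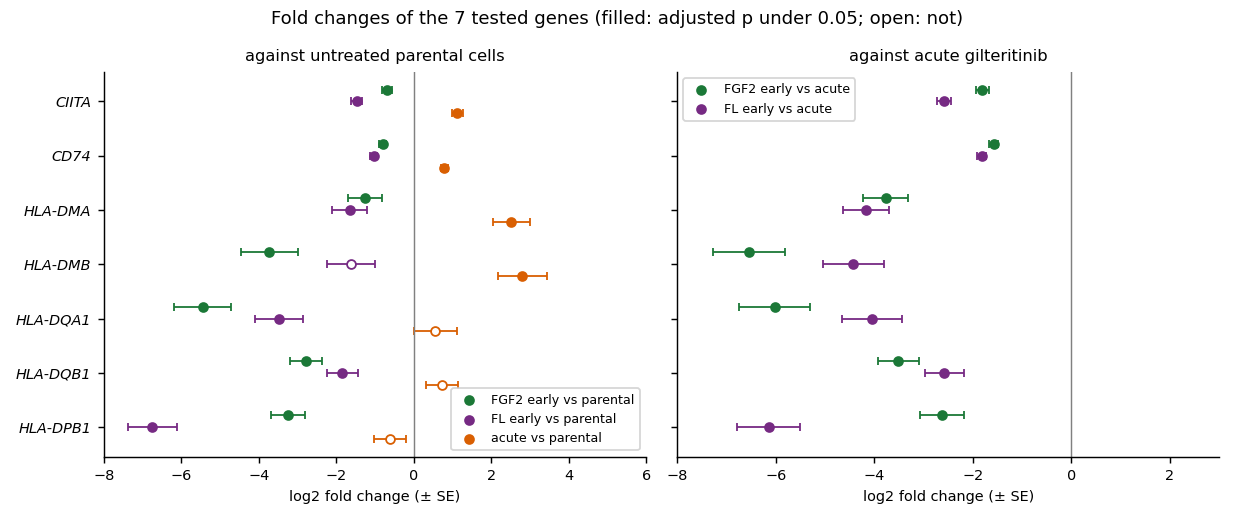
Log2 fold change with its standard error (horizontal axis) for the 7 tested members, with the early and acute arms against untreated parental cells on the left and the early arms against acute gilteritinib on the right. Filled points passed an adjusted p of 0.05 and open points did not. Every early point lies left of 0, and the acute points of CIITA, CD74, HLA-DMA and HLA-DMB lie right of it.

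Without FL early replicates 1 and 4, the calls of CIITA, CD74, HLA-DQB1, HLA-DQA1 and HLA-DPB1 against parental were kept. FL early against parental was then -1.37 for CIITA (adjusted p = 0.000156), -1.07 for CD74 (4.09e-05), -2.39 for HLA-DQB1 (2.58e-05), -4.48 for HLA-DQA1 (0.000559) and -0.84 for HLA-DMB (0.144). HLA-DMA was the exception, since its call ended (-1.04, adjusted p = 0.0887). FGF2 early against FL early stayed past the threshold for CIITA (0.68, adjusted p = 0.00795) and HLA-DPB1 (adjusted p = 0.00664), and HLA-DMB then passed as well, lower in FGF2 early (-2.89, adjusted p = 0.00051). Without FL early replicate 4 alone, HLA-DMB (-2.52, adjusted p = 0.00405) and HLA-DQB1 (-1.17, adjusted p = 0.0361) both passed as lower in FGF2 early. Against acute cells CIITA was at -2.43 (adjusted p = 1.06e-07) and CD74 at -1.81 (adjusted p = 3.4e-08) in the remaining FL early flasks. Among the companion genes of the lists below, the FL early calls against parental of IRF4 (-1.63, adjusted p = 0.088), CEBPA (0.91, adjusted p = 0.314), CTSD (0.58, adjusted p = 0.0691) and CD1D (-0.45, adjusted p = 0.0553) ended, and B2M (0.38, adjusted p = 0.00633) and NLRC5 (0.53, adjusted p = 0.018) passed as higher. IRF8 was then at -0.89 against parental (adjusted p = 3.43e-05), and at -0.79 in FGF2 early against FL early (adjusted p = 1.66e-05).

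Within the acute arm there was 1 library per ligand state, so no test was made. CD74 was at 442.9 CPM with FGF2 and 426.2 CPM with FL, against 416.8 CPM with drug alone. CIITA was at 46.6 CPM with FGF2 and 48.4 CPM with FL, against 51.6 CPM with drug alone. HLA-DMB was at 10.2 CPM with FGF2 and 8.2 CPM with FL, against 11.5 CPM with drug alone. For these 3 genes every acute library, with or without ligand, was above every parental library. With the drug-alone library by itself as the acute state, the same 4 members were higher than parental, CIITA by 1.19 (adjusted p = 0.000309) and HLA-DMA by 2.62 (adjusted p = 0.00403).

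Of the other class II genes, HLA-DOB was the only one tested, and it went the other way in acute cells. HLA-DOB was at 20.1, 18.7, 18.3 and 19.2 CPM in FGF2 early flasks, 15.8, 18.9, 17.7 and 18.9 CPM in FL early flasks, 8.23, 11.8 and 14.1 CPM in acute libraries and 24, 22.2 and 21.7 CPM in parental libraries. All 3 acute libraries lay below every other library. It fell in acute cells with a log2 change of -0.99 ± 0.15 against parental (adjusted p = 5.29e-05), and it was higher in early than in acute cells by 0.75 ± 0.14 for FGF2 (adjusted p = 0.000385) and 0.65 ± 0.14 for FL (adjusted p = 0.00125). Against parental, neither early arm passed (adjusted p = 0.193 and 0.0962). TAP2, a subunit of the peptide transporter for class I and the neighbour of HLA-DOB, fell in acute cells with a log2 change of -1.80 ± 0.15 (adjusted p = 1.24e-07). GENCODE 29 annotates a gene that spans both (AL669918.1), and it fell with a log2 change of -1.30 ± 0.26 (adjusted p = 0.000551), so reads of the 3 overlapping genes may be shared among them; it was looked up after these values were seen. HLA-DOA, the alpha chain of HLA-DO, was at 0 in every library. HLA-DRB5 had 1 count over FGF2 early, 0 over FL early, 14 over acute and 5 over parental libraries.

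The factors that bind the X and Y boxes were expressed in every arm, and none passed in FL early with all libraries in the fit. Without FL early replicate 1, RFXAP passed as lower in FL early (-0.51, adjusted p = 0.0411). RFX5, the large subunit of the RFX complex, was at 133.9 to 159.4 CPM in FGF2 early, 120.3 to 150.4 in FL early, 165.2 to 175.7 in acute and 126.6 to 142.7 in parental libraries. It rose in acute cells by 0.36 ± 0.09 (adjusted p = 0.00378), with acute libraries above all others, and did not pass in either early arm (adjusted p = 0.207 and 0.972). RFXANK also rose in acute cells (0.61 ± 0.08, adjusted p = 8.22e-06). RFXAP, the third RFX subunit, fell in acute cells (-1.36 ± 0.18, adjusted p = 1.37e-05) and in FGF2 early (-0.72 ± 0.16, adjusted p = 0.00467). NFYA and NFYB, subunits of NF-Y, fell in acute cells with a log2 change of -0.94 ± 0.10 (adjusted p = 2.01e-06) and -1.02 ± 0.11 (adjusted p = 1.76e-06). Of the 7 genes of this list, 0 were higher and 2 lower in FGF2 early, 0 and 0 in FL early, and 2 higher and 3 lower in acute cells against parental, with medians of -0.04, 0.01 and -0.15 beside 0.01, 0.01 and 0.07 over all genes tested. Over all genes tested, 13.3% were higher and 17.1% lower in FGF2 early, 10.9% and 9.76% in FL early, and 32.3% and 30.3% in acute cells. The counts of each list below stand beside these same shares and medians.

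Among 8 factors reported to set CIITA in myeloid and B cells, IRF8, a transcription factor of monocytes and dendritic cells, fell in both early arms but not in acute cells. IRF8 was at 323.6, 275.5, 276.3 and 277.6 CPM in FGF2 early flasks, 467.9, 469.4, 531.7 and 280.1 CPM in FL early flasks, 857.7, 868.3 and 912.2 CPM in acute libraries and 961.5, 952.1 and 894.8 CPM in parental libraries. Early flasks lay below every acute and parental library, FL early replicate 4 lay within the FGF2 early range, and acute and parental libraries overlapped. The change was -1.70 ± 0.15 in FGF2 early (adjusted p = 9.5e-06), -1.10 ± 0.15 in FL early (adjusted p = 0.000366) and -0.09 ± 0.16 in acute cells (adjusted p = 0.651). IRF8 was lower in FGF2 early than in FL early (-0.60 ± 0.14, adjusted p = 0.0134). SPI1 (PU.1), a myeloid factor, rose in FGF2 early (0.46 ± 0.11, adjusted p = 0.00662), FL early (0.89 ± 0.11, adjusted p = 0.000174) and acute cells (1.01 ± 0.12, adjusted p = 3.97e-06). Whether IRF8, SPI1 or another factor of this list has a part in the level of CIITA was not tested.

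IRF4 had few reads and passed the filter through the acute and parental libraries, so a difference was built into its being tested. It was at 0 to 0.103 CPM in FGF2 early, 0 to 0.441 in FL early, 1.90 to 3.54 in acute and 0.702 to 0.972 in parental libraries. Its difference from parental was -3.86 ± 0.82 in FGF2 early (adjusted p = 0.00314). The calls in FL early (-2.49, adjusted p = 0.027) and acute cells (1.66, adjusted p = 0.0442) ended in several fits with 1 library left out, at adjusted p up to 0.0782 and 0.137. EZH2, the histone H3 lysine methyltransferase of the Polycomb complex, fell in acute cells with a log2 change of -2.13 ± 0.09 (adjusted p = 1.34e-10), at 18.6 to 20.0 CPM in acute against 83.4 to 87.6 CPM in parental libraries. It was at 83.8 to 95.7 CPM in FGF2 early and 66.2 to 83.7 CPM in FL early, and did not pass there (adjusted p = 0.667 and 0.0729), though without FL early replicate 4 it passed as lower in FL early (-0.28, adjusted p = 0.0154). USF1 rose in acute cells by 0.48 ± 0.07 (adjusted p = 4.16e-05). PRDM1, a repressor of CIITA in plasma cells, was lower in FL early with a log2 change of -1.37 ± 0.40 (adjusted p = 0.0266), and that call ended without parental replicate 1, 2 or 3 (0.0606, 0.0582 and 0.0873) or FL early replicate 2 or 4 (0.0569 and 0.0548). In acute cells PRDM1 was higher than in parental cells (1.48 ± 0.42, adjusted p = 0.00684). ZBTB46 was higher in FGF2 early (2.06 ± 0.46, adjusted p = 0.00449) and in acute cells (1.61 ± 0.48, adjusted p = 0.00983). In this list 2 genes were higher and 2 lower in FGF2 early, 2 and 3 in FL early, and 6 and 1 in acute cells, with medians of 0.08, -0.13 and 1.24.

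Of the genes of interferon-gamma signalling, the best known inducer of CIITA, SOCS1 was the one lower in both early arms. IRF1 did not pass in FGF2 early, FL early or acute cells (adjusted p = 0.43, 0.0695 and 0.226), though upper-quartile scaling put the acute difference past the threshold (0.27, adjusted p = 0.0443), as did leaving out acute replicate 1 (0.30, adjusted p = 0.0137). SOCS1, a feedback inhibitor of JAK kinases, fell in FGF2 early (-2.10 ± 0.26, adjusted p = 8.07e-05) and FL early (-2.43 ± 0.27, adjusted p = 5.47e-05). JAK1 and JAK2 rose in acute cells by 1.03 ± 0.08 (adjusted p = 5.23e-08) and 1.02 ± 0.21 (adjusted p = 0.00076), and IRF2 by 0.57 ± 0.13 (adjusted p = 0.00131). Of the 8 genes in this list, 2 were higher and 1 lower in FGF2 early, 0 and 1 in FL early, and 3 and 0 in acute cells, with medians of 0.08, 0.16 and 0.13.

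Of the proteases that cut the invariant chain and its cargo, CTSS, CTSB and CTSD rose in acute cells. CTSS (cathepsin S), which cleaves CD74, was at 92.8 to 106.8 CPM in FGF2 early, 97.8 to 102.3 in FL early, 175.3 to 198.3 in acute and 81.0 to 83.9 in parental libraries. It rose by 1.17 ± 0.07 in acute cells (adjusted p = 3.63e-09) and, unlike the class II genes, also rose in FGF2 early (0.27 ± 0.06, adjusted p = 0.0055) and FL early (0.28 ± 0.06, adjusted p = 0.0084). CTSB and CTSD rose in acute cells by 1.0 ± 0.07 (adjusted p = 1.27e-08) and 2.48 ± 0.19 (adjusted p = 5.35e-08). CTSH fell in FGF2 early (-3.36 ± 0.37, adjusted p = 3.91e-05) and FL early (-2.19 ± 0.35, adjusted p = 0.00092). CTSL (cathepsin L) separated the early arms: it was at 0.448 to 1.31 CPM in FGF2 early against 2.63 to 10.4 CPM in FL early, a difference of -3.18 ± 0.39 (adjusted p = 0.000207). In acute libraries CTSL was at 11.2 CPM with drug alone, 8.35 CPM with FGF2 and 7.97 CPM with FL. IFI30, the thiol reductase of the endosome, was at 5.91 to 8.17 CPM in FGF2 early, 5.35 to 10.2 in FL early, 6.49 to 10.6 in acute and 10.7 to 11.3 in parental libraries. It passed as lower in FGF2 early (-0.60 ± 0.20, adjusted p = 0.0389), a call that ended whichever of the 4 FGF2 early or 3 parental libraries was left out, at adjusted p between 0.0536 (without FGF2 early replicate 2) and 0.102 (without parental replicate 2). Of the 8 genes in this list, 1 was higher and 5 lower in FGF2 early, 2 and 1 in FL early, and 3 and 0 in acute cells, with medians of -0.25, -0.01 and 0.39.

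Genes of class II trafficking and turnover were mixed. MARCHF8, a ubiquitin ligase that marks class II for degradation, rose in acute cells (1.12 ± 0.22, adjusted p = 0.000476) and fell in FGF2 early (-0.98 ± 0.21, adjusted p = 0.0032). UBE2D1, a ubiquitin-conjugating enzyme, fell in FGF2 early (-1.05 ± 0.13, adjusted p = 9.91e-05), FL early (-0.76 ± 0.13, adjusted p = 0.00184) and acute cells (-1.42 ± 0.15, adjusted p = 1.19e-06). CD83, which opposes that ubiquitination, was at 11.7 to 15.3 CPM in FGF2 early, 11.2 to 16.1 in FL early, 18 to 23.9 in acute and 15 to 15.9 in parental libraries, and passed in acute cells (0.44 ± 0.15, adjusted p = 0.0194). The CD83 call ended without parental replicate 1 or 3 (0.0548 and 0.0606) or acute replicate 2 (0.105). AP2A1, an adaptor subunit of endocytosis, rose in both early arms (0.46 ± 0.10 in FGF2 early, adjusted p = 0.00431, and 0.43 ± 0.10 in FL early, adjusted p = 0.0106), the FL early call ending without parental replicate 1 or 2 (0.0608 and 0.066). AP2B1 fell in acute cells (-0.41 ± 0.06, adjusted p = 4.59e-05). Of the 6 genes in this list, 1 was higher and 2 lower in FGF2 early, 1 and 1 in FL early, and 2 and 2 in acute cells, with medians of -0.59, -0.18 and 0.33.

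In the class I pathway, which has its own transactivator, NLRC5, no gene passed as lower than parental in either early arm with all libraries in the fit. Over all genes tested, 17.1% passed as lower in FGF2 early and 9.76% in FL early, and for 12 genes tested a count of 0 is near those shares. Without FL early replicate 2, TAP2 passed as lower in FL early (-0.45, adjusted p = 0.0226, against -0.34 and 0.0847 with it). NLRC5 was at 65.9 to 81.6 CPM in FGF2 early, 57.6 to 101.7 in FL early, 48.4 to 65.7 in acute and 59.0 to 68.7 in parental libraries. It did not pass against parental in FGF2 early, FL early or acute cells (adjusted p = 0.204, 0.132 and 0.337), but without FL early replicate 1 it passed as higher in FL early (0.49, adjusted p = 0.0173). B2M, the shared light chain of class I, did not pass in FGF2 early, FL early or acute cells against parental (adjusted p = 0.0838, 0.305 and 0.734), and it too passed without FL early replicate 1 (0.29, adjusted p = 0.0466). HLA-E rose in acute cells (1.54 ± 0.11, adjusted p = 2.39e-08) and FL early (0.50 ± 0.10, adjusted p = 0.00424). TAPBP, the tapasin gene, rose in FGF2 early (0.56 ± 0.11, adjusted p = 0.00166), FL early (0.62 ± 0.11, adjusted p = 0.00175) and acute cells (0.78 ± 0.11, adjusted p = 3.52e-05). Of 13 genes 12 were tested, of which 2 were higher and 0 lower in FGF2 early, 4 and 0 in FL early, and 4 and 3 in acute cells, with medians of 0.04, 0.29 and 0.09.

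Of the co-stimulation and CD1 genes, CD86, CD1D and ICAM1 rose in acute cells, and CD1D passed as lower in both early arms. CD86, the ligand of CD28 on T cells, was at 0.241 to 0.629 CPM in FGF2 early, 0.308 to 1.80 in FL early, 9.07 to 12.6 in acute and 1.18 to 2.32 in parental libraries. It rose in acute cells by 2.73 ± 0.47 (adjusted p = 0.000161) and fell in FGF2 early with a log2 change of -1.97 ± 0.47 (adjusted p = 0.00667). CD1D, which presents lipids, rose in acute cells (0.70 ± 0.13, adjusted p = 0.000249) and fell in FGF2 early (-0.79 ± 0.12, adjusted p = 0.000343) and FL early (-0.49 ± 0.12, adjusted p = 0.0123), the FL early call ending without replicates 1 and 4 (-0.45, adjusted p = 0.0553). CD1C had 5 counts over FGF2 early, 2 over FL early, 18 over acute and 32 over parental libraries. It passed the filter through the acute and parental libraries, so its calls as lower in FGF2 early (adjusted p = 0.00832) and FL early (adjusted p = 0.00584) were built into its being tested, and it did not pass in acute cells (-0.79 ± 0.70, adjusted p = 0.345). ICAM1, an adhesion partner of T cells, fell in FL early (-0.45 ± 0.09, adjusted p = 0.00336), and its rise in acute cells (0.25 ± 0.09, adjusted p = 0.03) ended whichever parental or acute library but acute replicate 1 was left out (0.0664 to 0.0937). Of 8 genes 6 were tested, of which 0 were higher and 3 lower in FGF2 early, 0 and 3 in FL early, and 3 and 0 in acute cells, with medians of -0.72, -0.47 and 0.10.

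**Figure D3:**
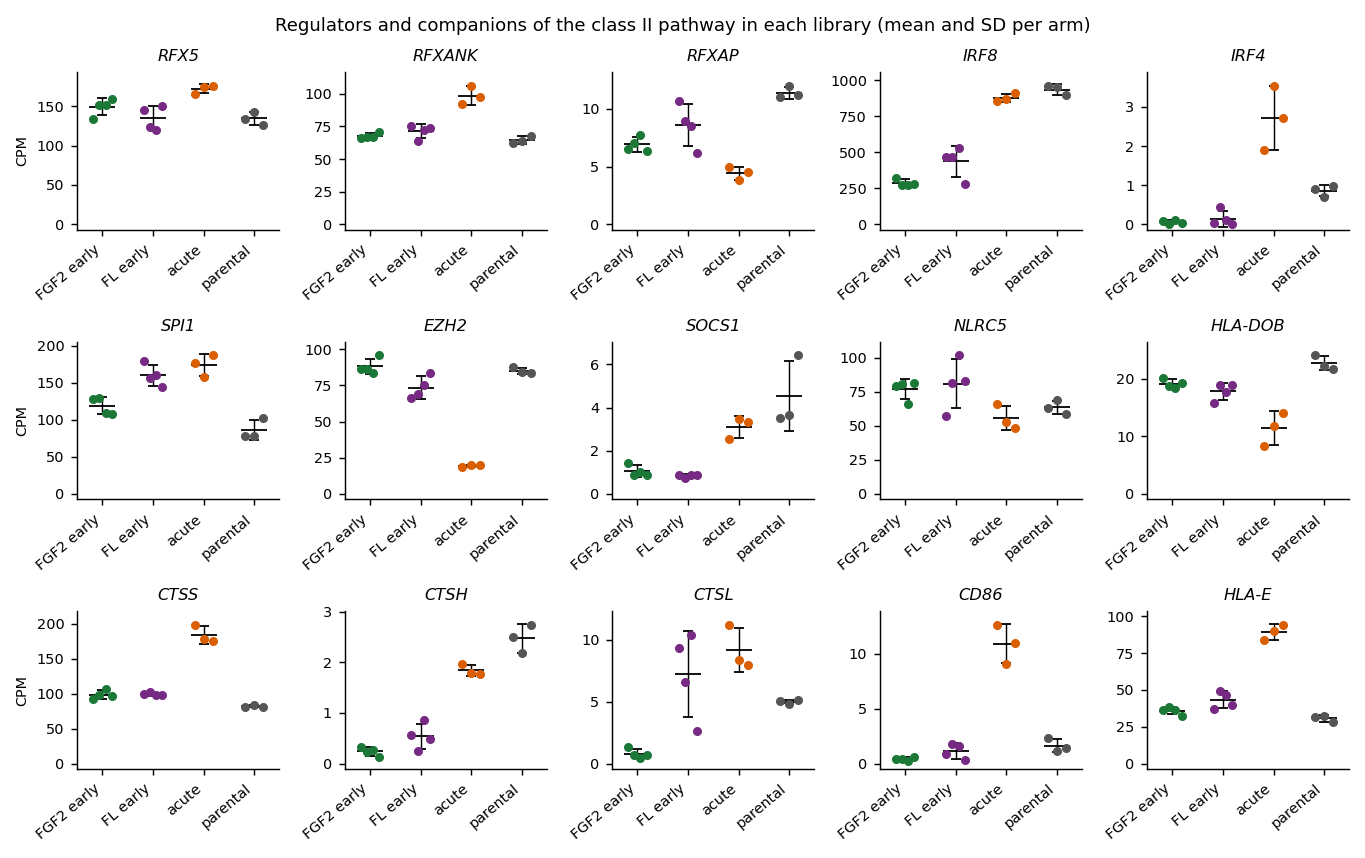
Expression in scaled counts (CPM, linear axis with its own range in each panel) of regulators and companions of the class II pathway, 1 point per library, with the mean and SD of each arm (FGF2 early n = 4, FL early n = 4, acute n = 3, parental n = 3). IRF8 is lower in both early arms than in acute and parental libraries, EZH2 and HLA-DOB are lowest in acute libraries, and the NLRC5 points of acute and parental libraries overlap.

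Outside the members, 9216 tested genes with a name (mean log2 CPM of at least 3) were ranked by how like CIITA their profile over the 14 libraries was. The nearest were TSC22D3, SEL1L3 and SLC5A3. The measure was the root-mean-square difference of log2 CPM, each gene centred on its parental mean, which was 0.22 for TSC22D3, 0.36 for SEL1L3 and 0.37 for SLC5A3. TSC22D3 averaged 28.9 CPM in FGF2 early, 19.7 in FL early, 97.2 in acute and 45.4 in parental libraries. Among the members CD74 was nearest to CIITA at 0.33, closer than SEL1L3 and SLC5A3, followed by HLA-DMA at 0.91 and HLA-DQB1 at 1.27, with HLA-DMB, HLA-DPB1 and HLA-DQA1 at 1.76, 2.07 and 2.26. By this measure a larger change in the same direction also counts as a difference. HLA-DMB, HLA-DPB1 and HLA-DQA1 had few counts in early flasks, where log2 CPM is uncertain. HLA-DRA had too few reads for such a profile.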

How the data were processed

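Per the labels' protocols, libraries were made with a stranded TruSeq poly(A) kit and sequenced on an Illumina NovaSeq. Per the submitters' processing notes, the tool was kallisto and the genome build GRCh37. The deposited values are estimated counts per Ensembl gene identifier, which need not be whole, and were rounded here. Names came from a list of gene names and, where it had none, from GENCODE 29, and 85.2% of identifiers had a name. GENCODE 29 also served to pick the primary-assembly identifiers. Identifiers with no name held 4.31% to 5.13% of counts. Totals ran from 25723575 to 33075041 per library, and intervals and floors of 3 counts cover counting error only.

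Genes were tested with edgeR 4.0.16 (R 4.3.3) by the quasi-likelihood test, with TMM scaling, filterByExpr (minimum count 10, minimum total 15) and 1 fit of 14 libraries in 4 arms. Benjamini-Hochberg adjustment ran over 15756 genes, with a threshold of 0.05. The 3 acute libraries, which differ in ligand, were taken as 1 arm. CPM values use TMM library sizes. The fit was tried on simulated counts with the same spread for every gene and changes in FGF2 early only. Only FGF2 early against parental was looked at there, so the other comparisons were not tried. The members and lists were chosen with earlier results of these data known. Named genes were the members, up to 3 genes per list and comparison against parental with the smallest adjusted p, a fixed panel, and the 3 genes most like CIITA in profile with a mean log2 CPM of at least 3. Genes singled out later are said to be so. Alternatives were RLE, upper-quartile and reduced-gene TMM scaling, DESeq2 1.42.0, limma-voom (limma 3.58.1), no filter, fits of only the libraries compared, a replicate block, the drug-alone acute library, and leaving out each library. Leaving out FL early replicates 1 and 4 was added after seeing the data. Some genes of the lists are counted with their list and not reported here by name.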

Additional observations from a re-analysis of the deposited data

Results flagged for a closer look

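Within arms of 4 flasks, 5 member values stood apart from the other flasks of their arm by a gap past Dixon's 95% critical value, which chance passes in about 1 in 20 groups. CIITA was at 17.3 CPM in FGF2 early replicate 1 (gap 0.872 of the range), above the other FGF2 early flasks. CD74 was at 109.7 CPM in FL early replicate 2 (0.967), below the other FL early flasks. The remaining 3 rest on few counts. HLA-DQA1 was at 0.101 CPM in FGF2 early replicate 2 (0.926), HLA-DPA1 at 0.0582 CPM in FGF2 early replicate 1 (0.841) and HLA-DPB1 at 0.0342 CPM in FL early replicate 4 (1.0), from 3, 2 and 1 counts.

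The early arms differed from each other in 2 members when tested directly by edgeR's quasi-likelihood test with Benjamini-Hochberg adjustment. CIITA was higher in FGF2 early than in FL early by 0.77 on the log2 scale (adjusted p = 0.00154). HLA-DPB1 was higher in FGF2 early, with a fitted difference of 3.51 (adjusted p = 0.0071) that is no bound, since it rests on 18 counts in FGF2 early and 1 in FL early.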

How the results depend on the processing

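Over the alternatives, 646 fold changes of single members kept their direction and side of the threshold, 12 lost a call, 10 gained one, 1 moved in sign without a call, and 0 called values reversed. Counts of members are not part of this tally. HLA-DMA lost its FGF2 early call against parental without the filter (adjusted p = 0.0765) and its FL early call in the fit of only the libraries compared (adjusted p = 0.0869). HLA-DMB in FL early against parental was gained with DESeq2 (-1.66, adjusted p = 0.0416) and limma-voom (-2.57, adjusted p = 0.0442). In FGF2 early against FL early, DESeq2 called HLA-DMB (-2.14, adjusted p = 0.0202) and CD74 (0.24, adjusted p = 0.032), and HLA-DMA changed sign without FL early replicates 1 and 4 (-0.20, adjusted p = 0.769). There the count of members higher was 1 with only the libraries compared, and the count lower was 1 with DESeq2 and 1 without FL early replicates 1 and 4. With only the early flasks, HLA-DPB1 held at most 8 counts in a library, under the filter's minimum count of 10, so it was not tested there. The cause of the other changes was not tested.

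With 1 library left out, the members lower numbered 6 to 8 in FGF2 early and 6 to 7 in FL early against parental, 7 to 8 in each early arm against acute, and 0 to 2 in FGF2 early against FL early, where 2 were higher throughout. In acute cells 4 were higher throughout. A count of 8 includes a member that newly passed the filter.

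Upper-quartile scaling moved the median of all genes to 0.18 in acute against parental, from 0.07, and to -0.16 and -0.15 in FGF2 early and FL early against acute. A fit of only the libraries compared called 3193 genes higher and 3564 lower in FGF2 early against parental, where 2095 and 2698 were called in the fit of all libraries.

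Same-numbered libraries did not deviate together over all genes tested (10 correlations from -0.0939 to 0.0658), which gave no sign that the numbers pair them. Deviations from the mean of so few libraries cannot exclude a pairing. With a replicate block over the 11 libraries outside the acute arm, 6 members were lower in FGF2 early and 6 in FL early against parental, and 2 were higher in FGF2 early than in FL early, as in the same 11 libraries without the block. HLA-DMA in FGF2 early was at -1.19 (adjusted p = 0.0634) with the block and -1.25 (adjusted p = 0.0754) without it. No paired analysis was possible because of the numbering for comparisons with acute, where each title carries the number 1 and the numbers used here only name the libraries. Summing counts over identifiers of the same symbol was not run, since each member had 1. Depth limits HLA-DRA, HLA-DRB1 and HLA-DPA1, with 3, 54.7 and 52.9 estimated counts over all libraries.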

Other observations

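Among markers outside the comparisons above, CSF1R, the receptor of macrophage colony-stimulating factor, was at 183.4, 121.7 and 121.1 CPM in acute libraries, against 13.1, 14 and 13.3 CPM in parental libraries. It rose by 3.40 ± 0.34 on the log2 scale (adjusted p = 9.79e-07, edgeR's quasi-likelihood test). It was at 7.07 to 10.7 CPM in FGF2 early and 6.91 to 22.2 CPM in FL early flasks. CSF1R was singled out after its values were seen. VCAN, the other monocyte and macrophage marker that reached 1 CPM, averaged 0.774 CPM in acute and 7.38 CPM in parental libraries.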
